A study of Mus musculus with 4 samples.

Results

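Lysosomal enzymes and membrane proteins are described here as a group of 33 genes in ovarian myeloid cells of young and older mice. The members are 7 cysteine proteases (Ctsb, Ctsc, Ctsh, Ctsl, Ctss, Ctsz and Lgmn), 3 other proteases (Ctsa, Ctsd and Tpp1), 9 glycosidases (Hexa, Gusb, Man2b1, Neu1, Gaa, Glb1, Galc, Gla and Naglu), 2 cofactor proteins (Psap and Grn), 7 membrane proteins (Lamp1, Lamp2, Cd68, Laptm5, Scarb2, Npc1 and Mcoln1), 4 proton pump genes (Atp6ap1, Atp6v1a, Atp6v1b2 and Atp6v0d1) and the transcription factor Tfeb. They were taken by symbol from a list chosen with earlier results of these data known. All 33 were found among the 31053 genes of both matrices. The cells were CD45+CD11b+ cells sorted from ovaries of wild-type virgin C57BL/6J mice labelled 3 months (collected at 2 to 3 months) or 15 months (collected at 14 to 17 months). The younger group held 6 animals and the older group 5, each in 3 pools marked by hashtag antibodies, and the 3 pools of an age were joined before sorting and made into 1 droplet library per age. The 3 pools per age are the replicates. Each age was run as its own library, so effects of age and of the library cannot be told apart. The study asked how ovarian macrophage populations change with age.

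A lysosome is an acidic vesicle in which proteins, sugars and lipids taken up or discarded by a cell are degraded. Its soluble enzymes are acid hydrolases, its membrane is lined by heavily glycosylated proteins, and a proton pump keeps it acidic. Tfeb and related factors bind an E-box element in the promoters of many lysosomal genes, known as the CLEAR element, and macrophages, which engulf dying cells, are among the cell types richest in lysosomes. In the ovary, macrophages clear the remains of follicles and corpora lutea.

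Promoter sequences show how the E-box recurs among the members. RefSeq promoter windows of GRCm38.p6, from 250 bases before to 50 bases after a transcript start, were on hand for 29 of the 33 members and for 27025 genes in all. The windows of Ctsb, Ctsh, Npc1 and Atp6v1b2 were not analysed here. The E-box CACGTG, a palindrome that covers both strands, was in the window of 12 of 29 members (41.4%) and of 8.09% of all genes. The longer TCACGTG, searched on both strands and containing the E-box, was in 11 of 29 (37.9%) against 4.29%. The palindrome TCACGTGA, which contains both shorter motifs, was in 6 of 29 (20.7%) against 1.12%, and the same palindrome with G before it and C after it was in 0 of 29 against 0.37%. These are matches of letters in a window, not measured binding. The sequences shown next are examples of matches in members that differ between classes, not all matches, written 5′ to 3′ along the gene with matches to TCACGTG or its reverse complement CACGTGA (joined where they form TCACGTGA) in capitals.
Ctsa (chr2:164833758-164833786, plus strand): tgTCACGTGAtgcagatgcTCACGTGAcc
Ctsd (chr7:142387908-142387937, minus strand): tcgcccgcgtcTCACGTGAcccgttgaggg
Atp6v1a (chr16:44139373-44139402, minus strand): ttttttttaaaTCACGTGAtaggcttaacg
Atp6v0d1 (chr8:105566050-105566079, minus strand): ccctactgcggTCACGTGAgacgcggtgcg
Gla (chrX:134601215-134601244, minus strand): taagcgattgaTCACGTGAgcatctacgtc
Gla (chrX:134601182-134601211, minus strand): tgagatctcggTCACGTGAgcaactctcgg
Lgmn (chr12:102439125-102439153, minus strand): tggaatgtctgTCACGTGgtccattttat
Lamp1 (chr8:13159096-13159125, plus strand): ataTCACGTGgtccagcgccCACGTGAtgc
Lamp1 (chr8:13159128-13159156, plus strand): actggCACGTGAccacaTCACGTGcggaa
Ctsa and Gla each held 2 copies of the 8-base palindrome, and Lamp1 held 4 copies of the 7-base form within 75 bases before its start. Ctss, Psap, Cd68, Laptm5, Man2b1 and Galc, which return in the age comparisons, had no match to TCACGTG in their windows. Ctsd, Glb1, Naglu and Lgmn, which also return there, each had a match.

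After filtering, 6281 cells were kept, 2181 of 3 months (725, 479 and 977 in pools 1 to 3) and 4100 of 15 months (767, 2437 and 896). Pools held 4627201 to 25840364 UMIs (unique molecular identifiers, 1 per captured transcript), with a median of 5467 to 8595 UMIs per cell. Haemoglobin transcripts took 0.274% to 1.78% of UMIs in the 3-month pools and 0.00274% to 0.0224% in the 15-month pools. The share of mitochondrial UMIs was also apart, with pool medians of 1.71% to 2.04% at 3 months and 2.31% to 2.71% at 15 months, and the part of either in the results was not tested. Cells fell into 23 clusters, found without the 33 members and 98 other lysosomal genes so that these genes did not shape the groups. The sort was not complete: Ptprc, which encodes CD45, had a median of 464.5 CPM (the UMIs of a gene relative to all UMIs of a class in a pool, on the usual CPM scale) in macrophage-like cells but 141.5 in stroma or fibroblast-like cells and 48.4 in endothelial-like cells.

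Macrophage-like cells (1676 cells) had the highest lysosomal levels of the named myeloid classes. They joined 5 clusters, called here by number and leading genes: cluster 12 (765 cells, led by Vcam1, C1qa and Mrc1), cluster 9 (409 cells, led by Gpnmb, Spp1 and Fabp5, genes known from lipid-associated macrophages), cluster 4 (283 cells, led by Ccl8 and Rnase4), cluster 20 (168 cells, led by Fcgr4) and cluster 1 (51 cells, led by Saa3 and Prg4). Clusters 20 and 1 had too few pools with 10 cells to be described. The 33 members together took 2.59% ± 0.267 (SD, n = 6 pools) of the UMIs of macrophage-like cells. In cluster 9 the share was 2.90%, 3.25% and 3.33% in the 3-month pools and 4.11%, 3.98% and 3.80% in the 15-month pools, a mean of 3.56% ± 0.475 (n = 6). Cluster 12 had 1.86%, 1.78% and 1.85%, then 2.09%, 2.27% and 2.48%. Every pool of cluster 9 lay above every pool of cluster 12, and in both clusters the 15-month pools lay above the 3-month pools. The mean was 2.22% in cluster 4, 1.68% in cluster 2, a cluster of 571 cells with Ccr2 and MHC class II genes that was left unnamed, 1.32% in classical monocyte-like cells, 1.26% in non-classical monocyte-like cells, 0.891% in cDC2-like cells (a dendritic cell type), 0.675% in neutrophil-like cells and 0.271% in NK cell-like cells.

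**Figure D1:**
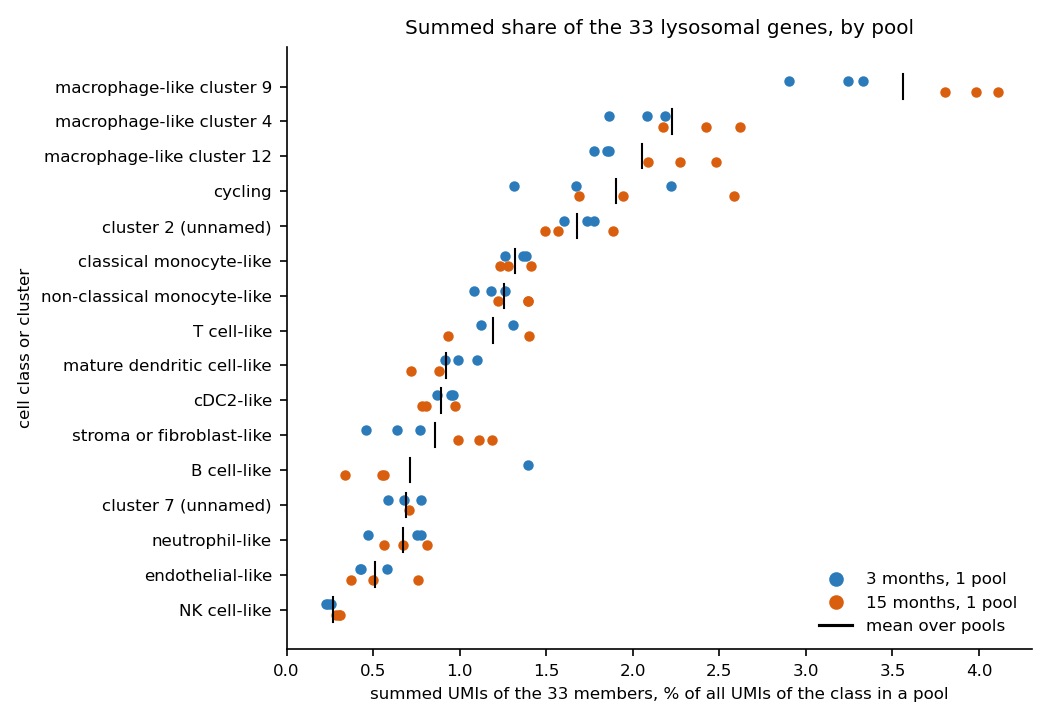
Share of all UMIs taken by the 33 members (x axis, percent) in each class or cluster (y axis), 1 point per pool coloured by age, with the mean over pools as a vertical line. Cluster 9 is highest, at 2.90% to 4.11%, and NK cell-like cells are lowest, at 0.230% to 0.307%.

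Classes were made from the same cells whose levels are compared, so differences between classes are given without a p-value, by whether their pools overlap. Levels are compared between classes within a gene. Where members are ordered against each other, as for those with the most UMIs in a role, the order is one of captured UMIs with no correction for length, and members given in full were picked by it. Of the 16 classes and clusters described, cluster 9 had the highest mean for 20 of the 33 members, and for 6 of these (Ctsb, Ctsz, Lamp1, Psap, Cd68 and Npc1) its pools did not overlap with the class of the next highest mean. Cluster 4 was highest for Ctsc, Ctsh, Man2b1, Glb1 and Galc, neutrophil-like cells for Lamp2, Neu1, Gla and Scarb2, non-classical monocyte-like cells for Laptm5 and Tfeb, classical monocyte-like cells for Atp6ap1 and stroma or fibroblast-like cells for Ctsl. Each of these 13 overlapped with the class next in order. Neutrophil-like cells had only 1856 to 2651 UMIs per cell, so their place in the order rests on few UMIs in small pools. Their Neu1 pools ran from 15.0 to 323 CPM. The class joined cluster 13 (463 cells) and cluster 19 (135 cells, led by Acod1), and 109 of the cluster 19 cells came from 15-month pool 2. The part of this mix was not tested.

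**Figure D2:**
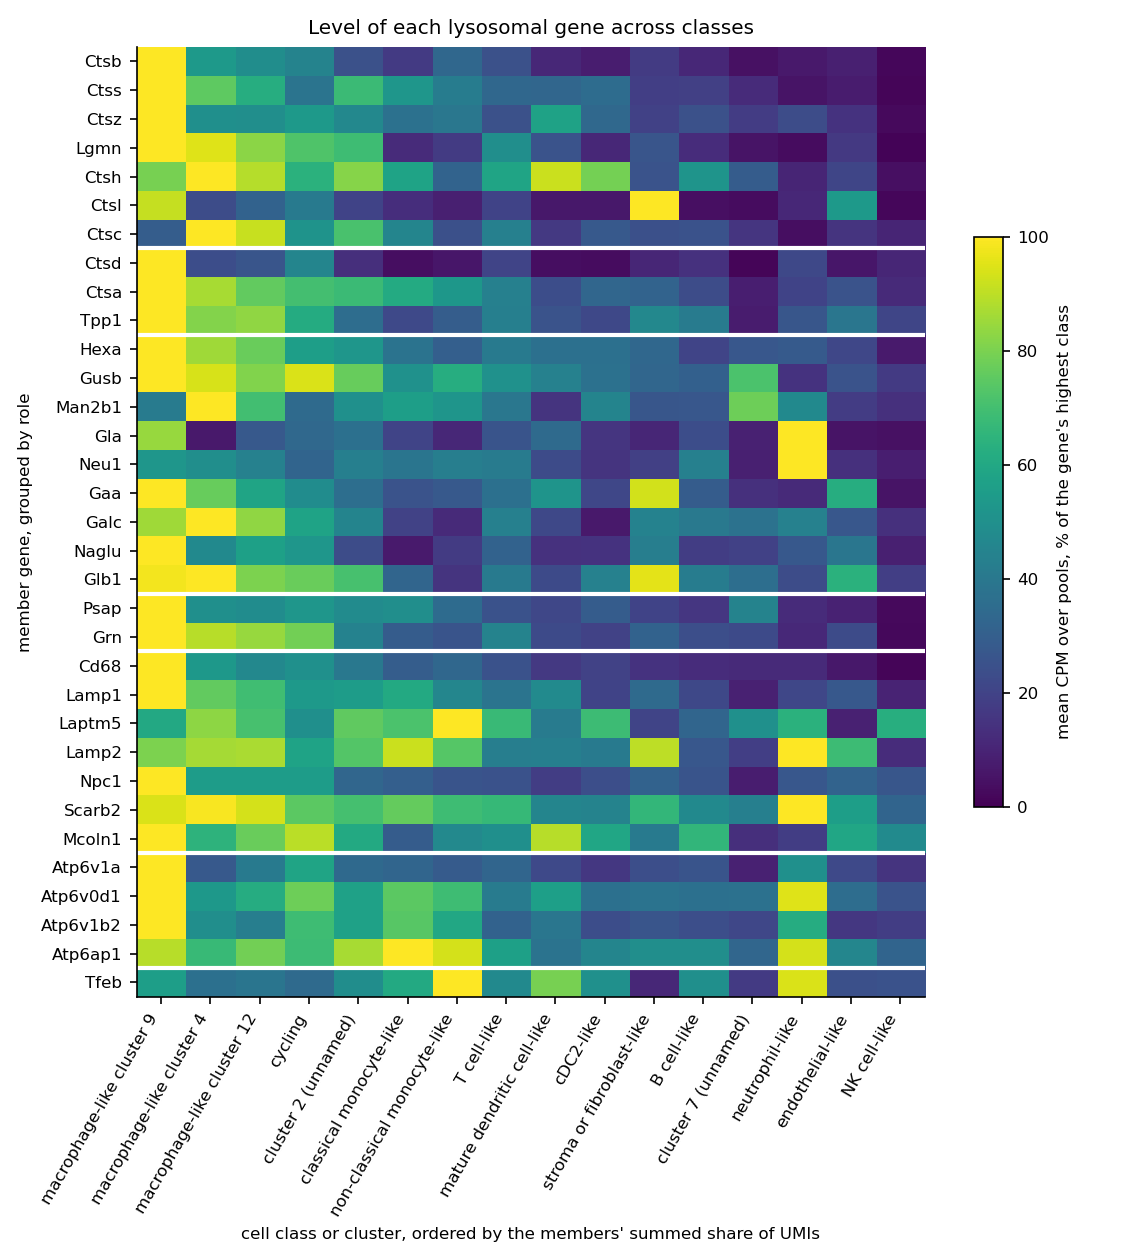
Mean CPM of each of the 33 members (rows, ordered by role) in each class or cluster (columns), as a percentage of that gene's highest class. The column of cluster 9 holds the maximum of 20 rows, and the NK cell-like column is near the low end for most.

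Among the cysteine proteases, Ctsb (cathepsin B, chr14:63122462-63145923, plus strand) and Ctss (cathepsin S, which trims the invariant chain of MHC class II; chr3:95526786-95556403, plus strand) had the most UMIs in macrophage-like cells. Ctsb was at 4106, 5261 and 3576 CPM in the 3-month macrophage-like pools and 4428, 4314 and 3831 CPM in the 15-month pools, with no separation by age. In cluster 9 its mean was 6423 ± 498 CPM (n = 6), against 3153 ± 620 in cluster 12, 2140 ± 249 in non-classical monocyte-like cells, 1081 ± 252 in classical monocyte-like cells and 109 ± 42.1 in NK cell-like cells. The order placed macrophage-like clusters 4, 9 and 12 above both monocyte classes. Ctss was at 2677, 2782 and 2766 CPM and then 3925, 3429 and 3520 CPM in macrophage-like cells. Its means were 2913 ± 465 CPM in cluster 2, 2244 ± 279 in classical monocyte-like cells, 1509 ± 178 in cDC2-like cells and 220 ± 101 in neutrophil-like cells. Ctsc (cathepsin C, which activates granule proteases) ran the other way within macrophage-like cells. It was lower in cluster 9, at 381 ± 124 CPM, than in cluster 12 at 1184 ± 136 and cluster 4 at 1293 ± 221. Lgmn (legumain, an asparaginyl endopeptidase) reached 1241 ± 85.7 CPM in cluster 9 and 1180 ± 204 in cluster 4, which overlapped, and 11.9 ± 13.0 in NK cell-like cells. Ctsl (cathepsin L) was the member whose highest mean lay outside the leukocytes, at 865 ± 248 CPM in stroma or fibroblast-like cells, within the spread of cluster 9 at 787 ± 243.

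Ctsd (cathepsin D, an aspartic protease; chr7:142375911-142388038, minus strand) and Ctsa (cathepsin A, a carboxypeptidase that also protects neuraminidase and beta-galactosidase) led the other proteases. Ctsd was at 2935, 4035 and 2280 CPM, then 3910, 2961 and 2906 CPM, in macrophage-like cells. The split by cluster was wider than the split by pool. Cluster 9 held 4702, 5149 and 6045 CPM, then 6734, 6598 and 5413 CPM, and cluster 12 held 1109, 1378 and 1074 CPM, then 1274, 1904 and 2372 CPM. The lowest cluster 9 pool was above the highest cluster 12 pool. Neutrophil-like cells had 1248 ± 265 CPM of Ctsd, above classical monocyte-like cells at 213 ± 59.6 and cDC2-like cells at 194 ± 70.9. Ctsa was at 365, 458 and 379 CPM, then 494, 431 and 438 CPM, in macrophage-like cells, and its cluster 9 mean of 503 ± 75.4 overlapped with cluster 4 at 437 ± 75. Tpp1 (tripeptidyl peptidase) was likewise highest in cluster 9, at 174 ± 30.3 CPM, with overlap to cluster 12 at 145 ± 19.8.

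Of the glycosidases, Hexa (the alpha subunit of hexosaminidase) was at 450, 471 and 458 CPM, then 502, 514 and 470 CPM, in macrophage-like cells. Its level differed little among macrophage clusters, with 563 ± 70.5 CPM in cluster 9, 483 ± 41.1 in cluster 4 and 434 ± 34.6 in cluster 12. Man2b1 (lysosomal alpha-mannosidase; chr8:85083270-85098282, plus strand) was at 217, 175 and 260 CPM, then 366, 320 and 340 CPM. Its macrophage order was the reverse of Ctsd, with 450 ± 123 CPM in cluster 4, 314 ± 44.8 in cluster 12 and 188 ± 71.3 in cluster 9. Gla (alpha-galactosidase A, the enzyme of the lipid globotriaosylceramide) had a pattern of its own. It was at 166 ± 42.2 CPM in neutrophil-like cells and 140 ± 25.5 in cluster 9. Those 2 overlapped, and NK cell-like cells had 7.50 ± 6.34. Gaa, Glb1, Galc and Naglu had means under 60 CPM in every class, so their class order rests on few UMIs.

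Psap (prosaposin, the precursor of 4 sphingolipid activator proteins; chr10:60277627-60302597, plus strand) and Grn (progranulin) are the cofactor proteins. Psap was at 4055, 4347 and 3089 CPM, then 5536, 4255 and 3803 CPM, in macrophage-like cells. Its cluster 9 mean of 6325 ± 1449 CPM lay without overlap above all other classes and clusters, leaving aside the macrophage-like class that contains it, while cluster 12 at 3074 ± 587, cluster 4 at 3152 ± 783, classical monocyte-like cells at 3118 ± 180 and cluster 2 at 3049 ± 381 did not differ beyond their spread. Grn was at 591, 734 and 801 CPM, then 822, 872 and 877 CPM, and was close in clusters 9 (869 ± 154), 4 (775 ± 98.9) and 12 (734 ± 149). Monocyte classes had less of it, with 254 ± 67.7 CPM in classical and 227 ± 73.4 in non-classical monocyte-like cells.

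Lamp1 (a major glycoprotein of the lysosomal membrane) and Cd68 (a related macrophage glycoprotein; chr11:69664213-69666153, minus strand) led the membrane proteins. Lamp1 was at 968, 1114 and 944 CPM, then 1187, 1026 and 1014 CPM, in macrophage-like cells, and at 1303 ± 157 in cluster 9 against 992 ± 51.3 in cluster 4. Cd68 was at 834, 1101 and 736 CPM, then 950, 866 and 817 CPM, and at 1323 ± 128 in cluster 9 against 703 ± 141 in cluster 4 and 619 ± 102 in cluster 12. Both were higher in every pool of cluster 9 than in any pool of the other classes and clusters, again leaving aside the macrophage-like class as a whole. Npc1, which exports cholesterol from the lysosome, followed the same order, with 126 ± 15.3 CPM in cluster 9 and 70.1 ± 21.0 in cluster 4. Laptm5 (a haematopoietic lysosomal protein) instead peaked in non-classical monocyte-like cells at 1226 ± 144 CPM. Mcoln1, a lysosomal calcium channel, was at most 11.5 ± 5.12 CPM in any class.

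For the proton pump, Atp6v1a (the catalytic subunit of the cytosolic part) was at 158, 220 and 125 CPM, then 198, 163 and 145 CPM, in macrophage-like cells, and Atp6v0d1 (a subunit of the membrane part) at 129, 158 and 123 CPM, then 129, 130 and 124 CPM. In cluster 9 their means were 270 ± 20.9 and 176 ± 8.70 CPM, and in cluster 12 they were 111 ± 28.7 and 109 ± 16.1 CPM. Tfeb was low in macrophage-like cells, at 30.6, 22.6 and 23.7 CPM, then 33.5, 30.4 and 31.5 CPM. It was not highest where the enzymes were: non-classical monocyte-like cells had 61.4 ± 15.9 CPM, neutrophil-like cells 57.9 ± 33.8 and cluster 9 34.3 ± 9.31. Neutrophil-like cells overlapped with both, and the lowest non-classical pool, at 47.2 CPM, was just above the highest cluster 9 pool, at 46.3 CPM.

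Cluster 9 against cluster 12 gave the clearest difference inside the macrophage-like cells. Of 33 members, 13 were higher in all 6 cluster 9 pools than in any cluster 12 pool, and 1 was lower. Over all 7269 genes measured at 10 CPM or more, 6.96% were higher and 8.72% lower without overlap. The members' median log2 ratio was 0.39, and that of all genes -0.03. The 13 were Ctsb, Ctsd, Ctsl, Ctsz, Lamp1, Psap, Cd68, Gaa, Gla, Npc1, Atp6v1a, Atp6v1b2 and Atp6v0d1. They thus came from proteases, membrane proteins, cofactors, glycosidases and 3 of the 4 pump genes. Ctsd had the largest log2 ratio, 1.98 ± 0.47 (SD over 6 pools), a 3.80-fold difference of means. Gla followed at 1.64 ± 0.48, Ctsl at 1.47 ± 0.45 and Atp6v1a at 1.31 ± 0.35. Atp6v1b2 had 1.23 ± 0.19, Cd68 1.10 ± 0.22 and Ctsb 1.04 ± 0.19. Psap was at 1.03 ± 0.17 and Lamp1, the smallest named here, at 0.53 ± 0.09. Ctsc was the 1 member lower, by -1.69 ± 0.59. Mean depth in cluster 9 was 12195 to 14674.5 UMIs per cell in the 3-month pools and 14488 to 16516 in the 15-month pools. In cluster 12 it was 6936 to 9324 and 9631 to 14797. The part of depth in the difference was not tested. Among members with TCACGTG in the promoter window, 6 of 11 were higher without overlap and the median log2 ratio was 0.70. Among those without it, 4 of 18 were higher, 1 was lower and the median was 0.25. The age ratios within cluster 9 ran the other way in counts, with 2 of 11 members with the motif higher at 15 months without overlap (median 0.28) and 13 of 18 without it (median 0.33). Cluster 4 against cluster 12 gave 0 of 32 members higher and 0 lower (0.54% and 2.83% of all genes), with a median of 0.10 against -0.05.

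**Figure D3:**
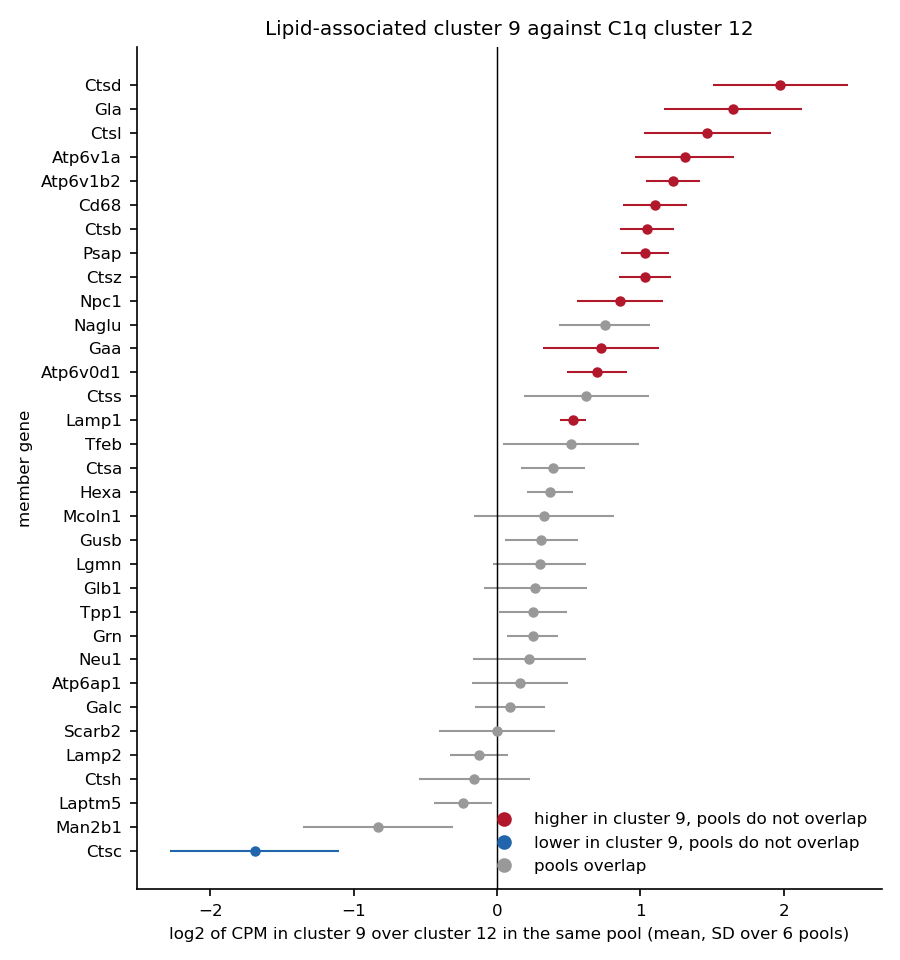
Log2 ratio of cluster 9 over cluster 12 for each of the 33 members (x axis), each point the mean of the ratios within 6 pools with its SD as a bar, coloured by whether the pools of the 2 clusters overlap. Ctsd is the largest at 1.98 and Ctsc the lowest at -1.69.

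Against classical monocyte-like and cDC2-like cells, macrophage-like cells were higher for many members and lower for 0. Of 32 members measured, 17 were higher than in classical monocyte-like cells without overlap and 0 lower, with 11.6% and 9.79% of all genes. The largest of these with small spread were Ctsd, at 3171 against 213 CPM (log2 3.91 ± 0.53, 14.9-fold), and Lgmn, at 1087 against 151 CPM (2.87 ± 0.26, 7.22-fold). Ctsb was at 4253 against 1081 CPM (2.00 ± 0.39). Psap, Lamp1, Laptm5, Ctsc and Tfeb were among the members that overlapped. Against cDC2-like cells, 27 of 32 were higher and 0 lower (15.2% and 9.01% of all genes), with Ctsd at 16.3-fold and Ctsb at 8.34-fold. Against the unnamed cluster 2, 10 of 32 were higher and 0 lower (3.92% and 3.24%). Cluster 2 itself was above classical monocyte-like cells for 5 of 32 members (3.03% of all genes), namely Hexa, Ctsh, Ctsc, Ctsd and Lgmn, with 0 lower (4.1%). Non-classical against classical monocyte-like cells gave 3 of 31 higher (4.76%), which were Ctsb, Laptm5 and Lgmn, and 1 lower (3.48%), Ctsh. Their median log2 ratio of -0.18 lay below that of all genes at 0.15. Against neutrophil-like cells, 17 of 32 were higher, with 33.5% of all genes also higher. The 1 lower member was Gla (11.9% of genes), at 79.9 against 166 CPM. Against NK cell-like cells, 30 of 32 were higher and 0 lower (16.1% and 18.2%), with Lgmn at 1087 against 11.9 CPM and Cd68 at 884 against 19.8 CPM.

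Macrophage RNA can reach other classes as free RNA or through barcodes shared by cells of different types. C1qa, C1qb, C1qc and Apoe, 4 abundant macrophage genes, were used to size it. Their levels cannot tell these sources apart, or from expression by the class itself, and the source was not tested. In NK cell-like cells these were at 0.967% to 1.33% of their macrophage-like level while the median member was at 16.9%. In neutrophil-like cells they were at 1.84% to 3.16% and the median member at 33.5%. In those classes the median member stood above the reference genes. In stroma or fibroblast-like cells the reference genes were at 28.8% to 32.7% and the median member at 39.2%, and in T cell-like cells at 47.4% to 51.0% and 54.5%. In these 2 classes the median member was also above the reference genes, but by a smaller margin. In stroma or fibroblast-like cells 22 members were above the highest reference gene and 6 below the lowest. In T cell-like cells 20 were above and 9 below. How much of the members' levels there came from macrophages was not tested.

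For age, the UMIs of each pool and class were summed and tested with edgeR's quasi-likelihood test. Values in the age comparisons are CPM scaled by edgeR's TMM factors, log2 ratios are 15 months over 3 months ± SE with 3 pools per age, and adjusted p-values are Benjamini-Hochberg values over all genes tested in a class. In macrophage-like cells 0 of 33 members passed an adjusted p of 0.05, against 0.124% of the 8855 genes tested. At an unadjusted p under 0.05 there were 5 members, and DESeq2 called 1 (Man2b1, adjusted p = 0.0413). Here and in the other classes, the shares of genes called are those of edgeR at the adjusted threshold. The share of all genes called by DESeq2 is not given here, so its member calls cannot be set against it. The share of all genes at an unadjusted p under 0.05 is not given here, so member counts at that cutoff show no excess over it. Ratios were positive for 22 members and negative for 11, with a median of 0.09 against 0.01 for all genes. Without cluster 20, of which 135 of 168 cells came from 15-month pool 3, there were also 0 calls, 27 positive ratios and a median of 0.15.

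The 6 members with the smallest p in macrophage-like cells were glycosidases, Ctss, Laptm5 and Atp6ap1, all with positive ratios. Man2b1 was at 225, 178 and 266 CPM at 3 months and 361, 315 and 336 CPM at 15 months. The ages did not overlap, the log2 ratio was 0.59 ± 0.16 and the adjusted p from edgeR's test was 0.196. Ctss was at 2770, 2841 and 2829 CPM, then 3879, 3374 and 3479 CPM. Again the ages did not overlap, with 0.35 ± 0.10 and an adjusted p of 0.197. Galc (galactosylceramidase, which degrades galactolipids) was at 32.3, 42.1 and 41.6 CPM, then 61.5, 54.5 and 50.3 CPM, without overlap (0.51 ± 0.15, adjusted p = 0.206). Glb1 (beta-galactosidase) was at 19.7, 25.4 and 29.6 CPM, then 42.1, 40.6 and 28 CPM. Its 15-month pool 3 lay among the 3-month pools (0.55 ± 0.21, adjusted p = 0.270). Laptm5 was at 720, 780 and 831 CPM, then 977, 877 and 965 CPM (0.27 ± 0.11, adjusted p = 0.299), and Atp6ap1, an accessory protein of the proton pump, was at 110, 103 and 104 CPM, then 129, 125 and 118 CPM (0.23 ± 0.11, adjusted p = 0.368). Neither overlapped. In all, 5 members were higher at 15 months without overlap and 1 lower, Lgmn, where 10.5% and 11.7% of all genes did the same. Ctsd, the member that separated the clusters most, had a ratio of 0.02 ± 0.20.

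The mix of clusters within macrophage-like cells differed between pools of an age. Cluster 9 was 36.7%, 49.1% and 17.2% of macrophage-like cells in the 3-month pools and 32.2%, 20.9% and 10.6% in the 15-month pools. Cluster 20 was at most 2.19% in the 3-month pools and 10.2%, 0.755% and 43.3% in the 15-month pools. The clusters were therefore also tested alone. Depth differed by age too. In cluster 12 it was 6936 to 9324 UMIs per cell at 3 months and 9631 to 14797 at 15 months, without overlap. Classical monocyte-like cells had 5373 to 6274 and 6761 to 8310, also without overlap. The ages overlapped in cluster 9, in macrophage-like cells (9074 to 10118 and 10082 to 13801) and in stroma or fibroblast-like cells (10170 to 16633 and 11973 to 12934). The part of depth in the age ratios was not tested.

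**Figure D4:**
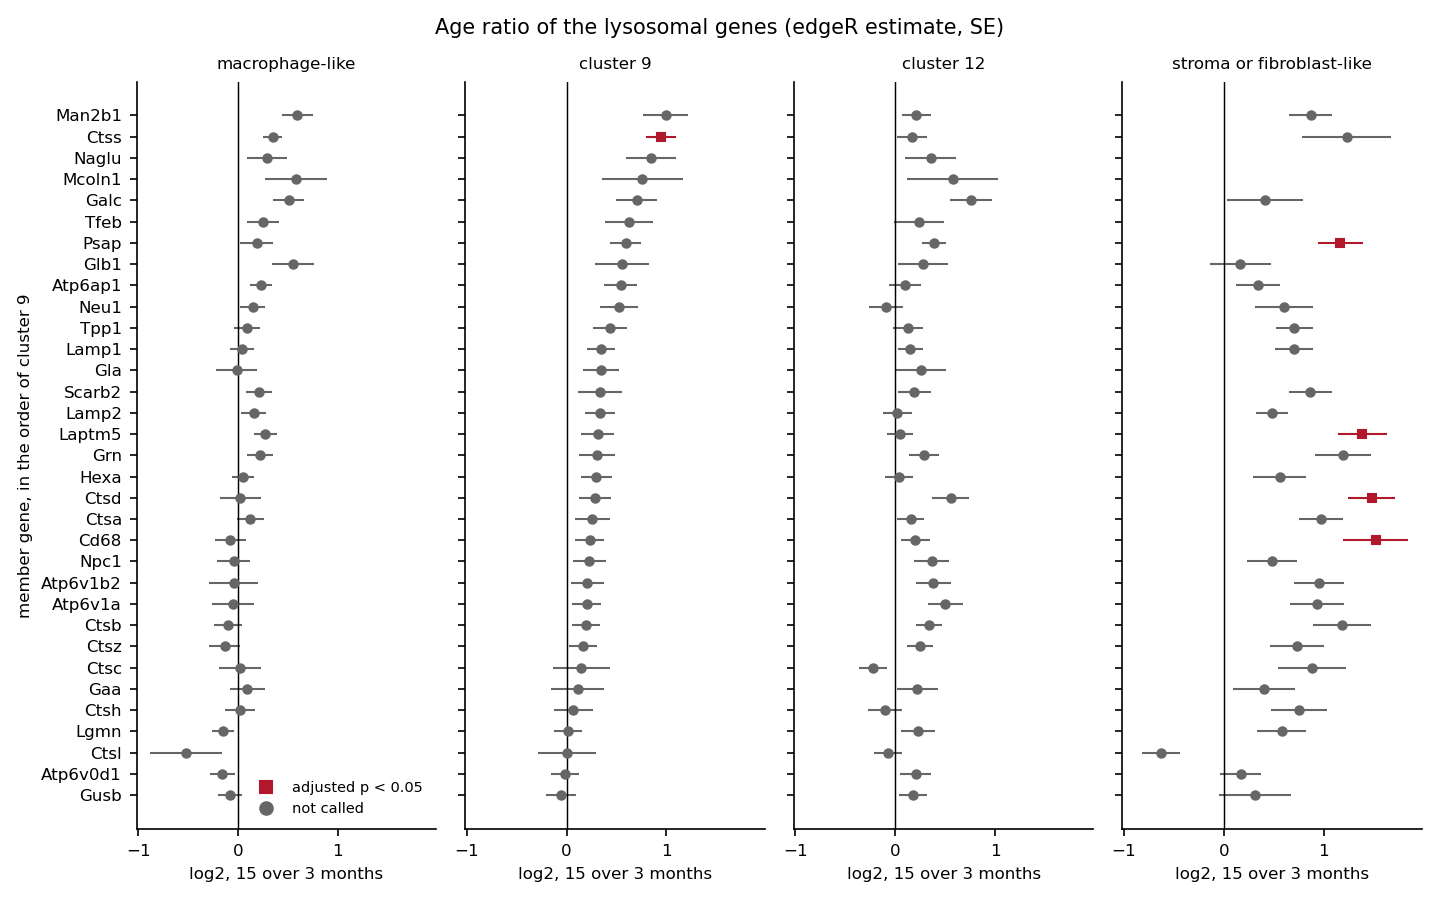
Log2 ratio of 15 over 3 months with its SE for each tested member in macrophage-like cells, cluster 9, cluster 12 and stroma or fibroblast-like cells, 1 panel each, with called members marked. Most members are above 0 in cluster 9 (31 of 33), cluster 12 (29 of 33) and stroma or fibroblast-like cells (28 of 29), and 22 of 33 are in macrophage-like cells.

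In cluster 9, the Gpnmb, Spp1 and Fabp5 macrophages, Ctss was higher at 15 months. It was at 2529, 3184 and 3277 CPM in the 3-month pools and 5884, 5566 and 5834 CPM in the 15-month pools. The 15-month pools were close to each other and far above all 3-month pools, with a log2 ratio of 0.94 ± 0.15 and an adjusted p of 0.0198 in edgeR's quasi-likelihood test. It was the 1 member called of 33, where 0.562% of 6588 genes were. The call was lost without 3-month pool 1 or 2 or 15-month pool 1 or 2, with adjusted p-values up to 0.127 in edgeR's test. Other clusterings of the cells were not tested for this cluster. DESeq2 called Ctss and Man2b1. Ratios were positive for 31 of 33 members, with a median of 0.31 against 0.01 for all genes. Of the 31, 11 were at an unadjusted p under 0.05, a cutoff for which the share of all genes is not given here. The pools of the ages did not overlap for 16 members, all higher at 15 months, where 10.4% of all genes were higher and 10.3% lower in that way.

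The members next to Ctss in cluster 9 did not pass. Man2b1 was at 95.3, 113 and 184 CPM, then 286, 236 and 242 CPM (0.99 ± 0.22, adjusted p = 0.0731 in edgeR's test). Psap was at 5250, 5273 and 4987 CPM, then 8997, 7764 and 6606 CPM (0.59 ± 0.16, adjusted p = 0.112). In both the ages did not overlap. Naglu, an enzyme of heparan sulfate breakdown, was at 22.4, 38.3 and 40.6 CPM, then 67.0, 51.4 and 65.1 CPM (0.84 ± 0.25, adjusted p = 0.145), again without overlap. Tfeb was at 34.8, 27.2 and 21.2 CPM, then 43.9, 48.4 and 35.3 CPM (0.63 ± 0.24, adjusted p = 0.240). The ages did not overlap, by a small margin. By role, the median log2 ratio was 0.53 for the 9 glycosidases, 0.45 for the cofactors, 0.33 for the membrane proteins, 0.28 for the 3 other proteases, 0.20 for the pump genes and 0.15 for the cysteine proteases. These medians were larger than in all macrophage-like cells, where the same medians were 0.15, 0.20, 0.16, 0.09, -0.05 and -0.10. The 13 members that lay above cluster 12 in all cluster 9 pools had age ratios from -0.02 (Atp6v0d1) to 0.59 (Psap), with Ctsd at 0.28. Of the other lysosomal genes tested in cluster 9, Cd63 (a tetraspanin of the lysosomal membrane) was called, from 1268, 1193 and 1366 CPM to 2568, 2424 and 1838 CPM (0.84 ± 0.16, adjusted p = 0.0466). Gm2a (the activator of hexosaminidase) was also called, from 189, 232 and 189 CPM to 333, 371 and 353 CPM (0.79 ± 0.15, adjusted p = 0.0468). Neither overlapped between ages. Summed macrophage markers were at 19600 to 52528 CPM and 35646 to 44504 CPM at the 2 ages, lipid-associated macrophage markers at 14386 to 26095 and 18473 to 30666 with 1 of 6 called higher, and haemoglobin and other erythroid genes at 447 to 1047 and 16.7 to 25.7. Classical monocyte markers were at 237 to 499 and 501 to 584 CPM with 0 called. cDC2 markers were at 209 to 393 and 110 to 152 with 1 called lower and Flt3 and Zbtb46 at 0, and B cell markers were at 16.9 to 49.9 and 55.0 to 80.5 with 0 called. The part of these lists in the Ctss result was not tested.

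Cluster 12 had ratios in the same direction and 0 members called by edgeR, where 0.207% of genes were. At an unadjusted p under 0.05 there were 6 members, and DESeq2 called 0. The ratio was positive for 29 of 33, with a median of 0.21 against -0.01. Lipid-associated macrophage markers, which lead cluster 9, moved in the same direction in cluster 12, from 1584 to 1597 CPM at 3 months to 2866 to 3611 CPM at 15 months, with 6 of 6 positive and 0 called, and their part was not tested. Without overlap, 7 members were higher and 0 lower, where 7.66% and 8.11% of genes were. Galc had the smallest p, from 27.1, 32.3 and 42.6 CPM to 71.5, 55.4 and 59.7 CPM, with no overlap (0.76 ± 0.21, adjusted p = 0.217). Ctss was at 3000, 1950 and 2694 CPM, then 2748, 2783 and 3059 CPM, and the ages overlapped (0.17 ± 0.15, adjusted p = 0.778). The difference of the Ctss ratio between clusters 9 and 12, tested as an interaction with the pools as blocks, was 0.74 ± 0.25 with an adjusted p of 0.656 in edgeR's quasi-likelihood test. It was not called. In that test 0 of 33 members and 0.0% of genes were called, with 2 members at an unadjusted p under 0.05. Cluster 4 had 0 of 27 called (0.199% of genes, 2 at an unadjusted p under 0.05, DESeq2 0), and without overlap 1 was higher (6.02% of genes) and 1 lower (7.01%). Its smallest p was that of Psap, from 3666, 2572 and 2887 CPM to 3339, 4162 and 5092 CPM, with overlap (0.47 ± 0.18, adjusted p = 0.545).

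**Figure D5:**
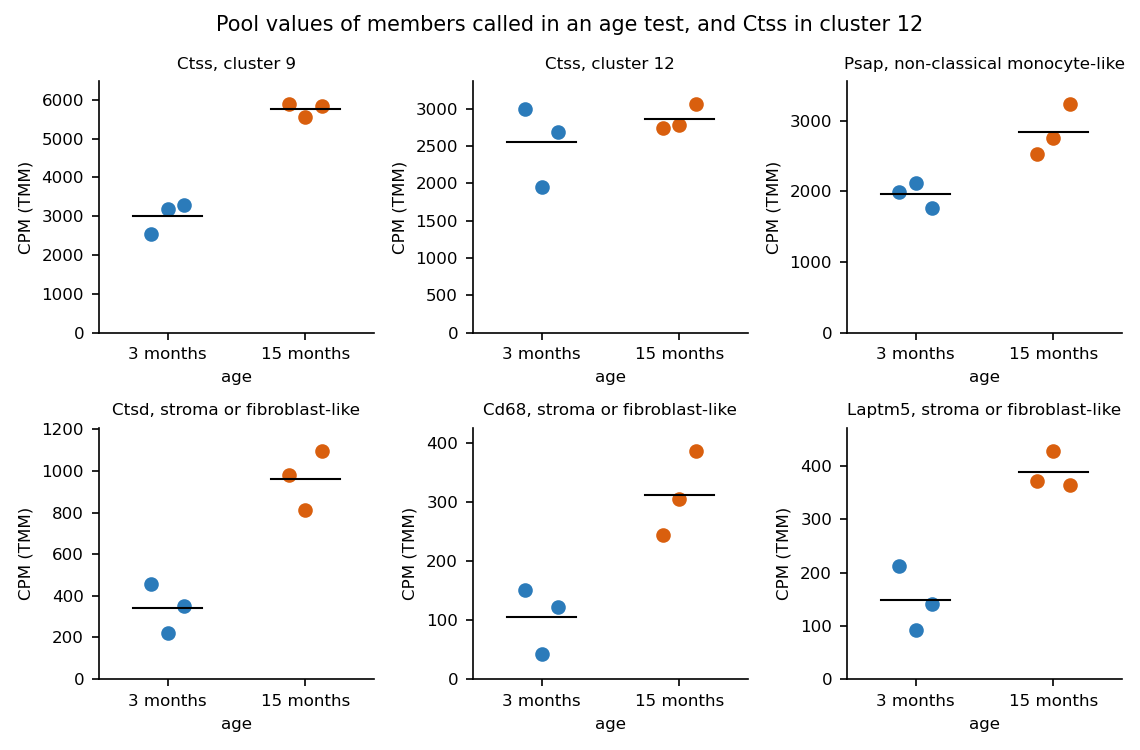
CPM (TMM-scaled) of members in the 3 pools of each age, 1 point per pool with the mean as a line, for Ctss in clusters 9 and 12, Psap in non-classical monocyte-like cells, and Ctsd, Cd68 and Laptm5 in stroma or fibroblast-like cells. Ctss is at 2529 to 3277 and 5566 to 5884 CPM at the 2 ages in cluster 9 and overlaps between ages in cluster 12.

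Psap was the 1 member called of 26 in non-classical monocyte-like cells, where 0.901% of 3551 genes were. It was at 1988, 2122 and 1759 CPM, then 2530, 2753 and 3230 CPM. The ages did not overlap, with 0.54 ± 0.12 and an adjusted p of 0.0213 in edgeR's quasi-likelihood test. Without overlap 2 members were higher (9.29% of genes) and 1 lower (9.38%). The Psap call was lost without 3-month pool 1 or 3 or 15-month pool 2 or 3. Summed macrophage markers moved with it, from 3804 to 5102 CPM at 3 months to 5604 to 7824 CPM at 15 months, with 6 of 6 tested positive and Apoe called (0.66 ± 0.14, adjusted p = 0.0184). Of the reference genes C1qa, C1qb, C1qc and Apoe, 3 were tested and 3 were positive, with a median log2 ratio of 1.81. Of these, 1 was called and 1 was higher without overlap. Resident macrophage markers summed to at most 31.8 CPM, with Lyve1, Cd163 and Timd4 at 0. The part of macrophage RNA in the Psap result was not tested.

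Stroma or fibroblast-like cells (296 cells) had the most members called, 4 of 29, all higher at 15 months, where 2.13% of 6069 genes were called. These are not the cells the sort was set for, and they carry macrophage transcripts, as given above. Ctsd was at 457, 221 and 352 CPM, then 981, 812 and 1097 CPM (1.48 ± 0.23, adjusted p = 0.0279 in edgeR's quasi-likelihood test). Laptm5, a gene of blood cells, was at 211, 92.6 and 141 CPM, then 371, 429 and 364 CPM (1.38 ± 0.25, adjusted p = 0.0342). Psap was at 1223, 644 and 651 CPM, then 1821, 1773 and 2047 CPM (1.17 ± 0.22, adjusted p = 0.0389). In none of these did the ages overlap, and the same held for Cd68. Cd68, known mainly from macrophages, was at 151, 42.7 and 123 CPM, then 244, 305 and 387 CPM (1.52 ± 0.33, adjusted p = 0.0439). Ctsl, the member with its highest mean in this class, was the 1 of 29 with a negative ratio, from 1094, 1136 and 1113 CPM to 971, 616 and 582 CPM, without overlap (-0.63 ± 0.19, adjusted p = 0.0957). The members' median ratio was 0.73, and that of all genes -0.01. Without overlap 18 of 29 were higher and 1 lower, where 13.0% and 13.2% of genes were. Summed macrophage markers were at 4288 to 11342 CPM at 3 months and 13745 to 19950 CPM at 15 months, with 9 of 9 positive and 0 called. MHC class II genes were at 2774 to 7583 and 10407 to 13802 CPM, with 3 of 5 called higher. Stroma markers were at 3172 to 5127 and 4119 to 5868 CPM. Granulosa cell markers were at 1006 to 2427 and 404 to 1266 CPM with 0 of 5 positive and 1 called lower, and endothelial markers at 75.8 to 183 and 28.2 to 34.8 CPM. Macrophage and MHC class II transcripts thus moved in the direction of the members and granulosa and endothelial transcripts against it, and their part was not tested. At a Leiden resolution of 1.0, where a granulosa-like cluster of 48 cells was separate, 0 of 28 members were called and the median ratio was 0.53. All 4 calls were lost without 3-month pool 3, 15-month pool 2 or 15-month pool 3.

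In the remaining classes edgeR called 0 members. In all kept cells together, a mixture whose make-up differed between pools, 0 of 33 were called (0.224% of genes, 7 at an unadjusted p under 0.05, DESeq2 0), and 9 were higher and 0 lower without overlap (13.6% and 12.8% of genes). Glb1 had the smallest p. It was at 14.7, 17.8 and 20.1 CPM, then 23.9, 26.3 and 24.9 CPM, without overlap (0.51 ± 0.14, adjusted p = 0.130). In cDC2-like cells 20 of 28 ratios were negative, the median was -0.24 against 0.00, and 0 were called (0.199% of genes, 3 at an unadjusted p under 0.05, DESeq2 1). Without overlap 2 were higher (9.28% of genes) and 4 lower (7.89%). Ctsl was at 96.2, 90.4 and 66.2 CPM, then 24.5, 42 and 23.8 CPM, lower at 15 months without overlap (-1.27 ± 0.25, adjusted p = 0.0757). Over the alternatives this ratio ran from -1.77 to -0.33, the latter with pools from HTODemux (adjusted p = 0.846 in edgeR's test), and it was -0.51 with lysosomal genes left in for clustering. The cDC2 markers of these cells were at 3941 to 4593 CPM and 2225 to 3493 CPM at the 2 ages, with 1 of 6 positive and 0 called, and their part was not tested. In NK cell-like cells 0 of 12 were called (0.677% of genes, 2 at an unadjusted p under 0.05, DESeq2 0), and 3 were higher and 0 lower without overlap (10.3% and 10.9%). Ctsd was at 640, 477 and 516 CPM, then 968, 811 and 741 CPM, without overlap (0.61 ± 0.16, adjusted p = 0.104).

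Cycling cells had 0 of 31 called (0.0212% of genes, 6 at an unadjusted p under 0.05, DESeq2 0), and 6 were higher and 0 lower without overlap (8.41% and 9.17%). Grn was at 514, 551 and 650 CPM, then 874, 775 and 999 CPM, without overlap (0.63 ± 0.17, adjusted p = 0.319 in edgeR's test). The reference genes C1qa, C1qb, C1qc and Apoe were at 35.8% to 72.8% of their macrophage-like level in cycling cells. All 4 had positive age ratios, with a median of 0.26 and 0 called, and their part was not tested. Classical monocyte-like cells had 0 of 25 called (0.392% of genes, 0 at an unadjusted p under 0.05, DESeq2 0), and their smallest p was that of Laptm5, from 911, 815 and 938 CPM to 995, 1136 and 1104 CPM, without overlap (0.28 ± 0.15, adjusted p = 0.640). Of the 25, 11 had positive ratios, and 1 was higher and 3 lower without overlap (8.51% and 7.16%). Cluster 2 had 0 of 29 called (0.173% of genes, 2 at an unadjusted p under 0.05, DESeq2 0), with Tpp1 from 40.5, 51.7 and 60.1 CPM to 66.7, 87.4 and 84.5 CPM, without overlap (0.62 ± 0.24, adjusted p = 0.923), and 3 members higher and 0 lower without overlap (6.37% and 5.74%). Endothelial-like cells had 0 of 27 called (0.0324% of genes, 1 at an unadjusted p under 0.05, DESeq2 0), with Ctsl from 849, 773 and 337 CPM to 415, 278 and 343 CPM, with overlap (-0.88 ± 0.32, adjusted p = 0.754). No member there was higher or lower without overlap, where 7.12% and 6.26% of genes were. Neutrophil-like cells, the shallowest class at 1856 to 2651 UMIs per cell, had 0 of 23 called (0.235% of genes, 0 at an unadjusted p under 0.05, DESeq2 0). Ctss there was at 165, 203 and 193 CPM, then 133, 365 and 418 CPM, with overlap (0.77 ± 0.43, adjusted p = 0.999), and 2 members were higher and 0 lower without overlap (6.85% and 4.88%).

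Whether the age ratio of a member differed between macrophage-like cells and another class was tested directly in 9 classes, which share the macrophage-like pools. edgeR's interaction test called 0 of 33 members in each. Of all genes, the share called at the adjusted threshold was 0.0951% for stroma or fibroblast-like, 0.0328% for cycling and 0.0337% for cDC2-like cells. It was 0.0% for cluster 2 and endothelial-like cells, 0.105% for NK cell-like and 0.0611% for neutrophil-like cells. For classical and non-classical monocyte-like cells it was 0.238% and 0.0241%. Members at an unadjusted p under 0.05 numbered 17 for stroma or fibroblast-like, 8 for cycling and 6 for cDC2-like cells. Cluster 2 had 5, NK cell-like cells 3 and neutrophil-like cells 1. Classical monocyte-like, non-classical monocyte-like and endothelial-like cells had 0. The share of all genes at that unadjusted cutoff is not given here, so these counts show no excess over it. No other tool was run on these differences. The smallest p was that of Ctsd in stroma or fibroblast-like cells, whose ratio was larger than in macrophage-like cells by 1.35 ± 0.31 on the log2 scale (adjusted p = 0.119 in edgeR's quasi-likelihood test). Next was Lgmn in cycling cells, at 620, 818 and 788 CPM, then 1272, 890 and 1318 CPM, against 1080, 1210 and 1164 CPM, then 985, 1060 and 1068 CPM in macrophage-like cells. Its ratio was larger in cycling cells by 0.74 ± 0.18 (adjusted p = 0.287 in edgeR's test). Cycling cells carry macrophage transcripts, as given above.

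The other lysosomal genes were followed in macrophage-like cells by lists of what they do, and edgeR called 0 in each list. Of 15 other glycosidases, sulfatases and amidases, 13 had positive ratios with a median of 0.19. Hgsnat, an acetyltransferase of heparan sulfate breakdown, was at 17.9, 22.5 and 25.9 CPM, then 44.9, 39.7 and 38.3 CPM (0.87 ± 0.17, adjusted p = 0.137 in edgeR's test). Its ages did not overlap. Of 10 lipid hydrolases and lipid transfer genes, 9 were positive with a median of 0.26, and Acp5, an acid phosphatase, was at 215, 137 and 175 CPM, then 306, 247 and 368 CPM (0.80 ± 0.20, adjusted p = 0.178). Of 15 other membrane proteins, 12 were positive with a median of 0.19, and Slc11a1, a metal transporter of phagosomes, had 0.43 ± 0.14 (adjusted p = 0.236). The 9 glycosidases of the members had a median of 0.15, and all genes tested 0.01.

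Pump subunits and regulators lay nearer 0 or below it. Of 14 other proton pump subunits, 4 were positive with a median of -0.12, and Tcirg1, a membrane subunit, had the smallest p at 0.36 ± 0.12 (adjusted p = 0.241 in edgeR's test). Of 15 MiT factors and mTORC1 genes tested, 6 were positive with a median of -0.02. Rraga, a GTPase that recruits mTORC1 to the lysosome, was at 77.8, 80.7 and 89.3 CPM, then 47.3, 52.7 and 58.1 CPM, lower without overlap (-0.65 ± 0.13, adjusted p = 0.148). Tfe3, a relative of Tfeb, was at 30.5, 32.9 and 37.4 CPM, then 51.1, 39.5 and 43.1 CPM, without overlap (0.38 ± 0.16, adjusted p = 0.294). Of 9 sorting genes, 7 were positive with a median of 0.08, and Gnptab, which makes the mannose 6-phosphate tag, had 0.56 ± 0.17 (adjusted p = 0.202). Of 7 other proteases tested, 4 were positive with a median of 0.16, and Scpep1, a carboxypeptidase, had the smallest p at -0.27 ± 0.11 (adjusted p = 0.293). Of 5 cathepsin inhibitors tested, 3 were positive with a median of 0.11, and Cstb, cystatin B, was at 1688, 1946 and 840 CPM, then 1492, 928 and 764 CPM, with overlap (-0.49 ± 0.32, adjusted p = 0.490).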

How the data were processed

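Gene counts (UMIs per gene and barcode) and hashtag counts of 2 libraries were used as deposited by the authors. The submitters' processing notes name Cell Ranger 7.0.0 and mm10, and the file headers name Cell Ranger 4.0.0. A barcode was kept with 500 genes or more, 1000 UMIs or more and no more than 10% of UMIs from mitochondrial genes, if its top hashtag had at least 10 counts and 3 times the next. Of the barcodes that passed the cell filter, 51 (3 months) and 247 (15 months) had no pool. Barcode doublets across pools were removed by the hashtag rule alone, since Scrublet marked 0.0459% and 0.0244% of cells and so did not work. Of the kept cells, 2 barcodes were in both libraries. Cells were clustered with scanpy 1.11.5 (2000 variable genes, 30 components, Leiden resolution 0.6) and named from marker lists; the limits of naming were set after the clusters were seen, so class names are rebuilt, not the authors'. Classes were described with 10 cells in at least 4 pools and tested with 10 in all 6. Pool sums were tested with edgeR 4.0.16 (filterByExpr, TMM, quasi-likelihood); DESeq2 1.42.0 was an alternative. Same-age macrophage-like pools differed beyond sampling noise (chi-square per degree of freedom 5.29 to 15.1). The labels give 5 animals for the 3 pools at 15 months, while the series text gives 2 animals per pool, and both cannot hold. Animals were not told apart within a pool, so p-values measure the spread between pools. Members named with all pool values were the 2 with most UMIs in macrophage-like cells per role, those called, and those with the smallest p. The members and lists were chosen with earlier results of these data known. In simulated data, age differences of 1 on the log2 scale were recovered for 59.2% of genes in macrophage-like cells and 51.1% in cluster 9. Gene positions are those of GENCODE on GRCm38. Alternatives were other normalizations, filters, hashtag rules, cluster resolutions, a replicate block and each pool left out. Some genes of the other lysosomal lists are counted in their lists and not reported singly here.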

Additional observations from a re-analysis of the deposited data

How the results depend on the processing

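Of 355 alternative counts of members called or not overlapping, 310 stayed within 1.5 times the count reported and 45 moved. Of 380 alternative values of named members, 331 kept direction and side of the threshold, 40 lost the call, 9 gained it and 0 changed sign. Most named members were not called in the main fit and so had no call to lose. The call held in 11 of 15 alternatives for Ctss in cluster 9 and 12 of 18 for Psap in non-classical monocyte-like cells. Clusters called by number were not tested at Leiden resolution 1.0, with lysosomal genes left in for clustering or with HTODemux pools. The 15 alternatives of cluster 9 thus hold none of these, and the 18 do. In stroma or fibroblast-like cells it held in 12 of 18 for Ctsd, 11 for Laptm5, 10 for Psap and 9 for Cd68. The share of all genes called under each alternative is not given here, so the counts that follow cannot be set against it. In macrophage-like cells (0 called) DESeq2 gave 1, no filter on low counts 1 and cluster 9 taken alone 1. In cluster 9 (1 called) DESeq2 gave 2, no filter 4, the replicate block 2 and leaving out 1 pool 0 to 4. Cluster 12 (0) gave 2 without a filter and 0 to 1 with 1 pool left out. In cDC2-like cells (0) DESeq2 gave 1, no filter 2 and leaving out 1 pool 0 to 1. Endothelial-like cells (0) gave 1 without a filter. NK cell-like cells (0) gave 1 with the replicate block and 0 to 1 with 1 pool left out, and all kept cells (0) gave 0 to 1. In non-classical monocyte-like cells (1) leaving out 1 pool gave 0 to 2, Leiden resolution 1.0 gave 0 and HTODemux pools 0. In stroma or fibroblast-like cells (4) DESeq2 gave 7, no filter 19, a mean of at least 50 CPM 2, the replicate block 1, the hashtag ratio of 5 gave 10, the strict cell filter 0, Leiden resolution 1.0 gave 0, HTODemux 0 and leaving out 1 pool 0 to 8. Under the strict cell filter cluster 4 against cluster 12 gave 1 higher and 1 lower, and 7 members were lower in macrophage-like than in neutrophil-like cells, where 2 pools remained in place of 6 and pools separate more easily. At Leiden resolution 1.0, 2 members were lower in non-classical than in classical monocyte-like cells. The interaction counts (0) became 0 to 1 in cDC2-like cells with 1 pool left out, where Psap was called without 15-month pool 3, and 0 to 4 in stroma or fibroblast-like cells, where Ctss, Laptm5, Ctsd and Psap were called without 3-month pool 1. The causes were not tested, except that no filter adds genes of low counts to the fit. Pool numbers did not pair the pools: deviations of same-numbered macrophage-like pools correlated at -0.13, 0.03 and 0.15, so the block is only an alternative. Counts of UMIs limit the members under 60 CPM and the levels in shallow neutrophil-like cells, and 3 pools per age limit all age tests.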
